A study of Mus musculus with 12 samples.

Results

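Interferon-stimulated genes and the proteins that switch them on were followed in cultured mammary epithelial cells of C57BL/6 mice. The set holds 38 genes, found by symbol among the 28427 rows of the gene tables with no threshold on values, and each symbol was matched to the row that carries it or, where 2 rows did, to the row with the larger mean count. The genes were chosen with earlier results of these data known. Of the 38 genes, 37 had enough reads to be tested among 13951 tested genes. The exception was Ifitm1, with 3 counts in spheroids at 96 h, 5 in spheroids at 48 h, 1 in monolayers at 96 h and 3 in monolayers at 48 h. The genes were split into 12 sensors and transcription factors, which detect viral RNA or carry the signal to the genome, and 26 genes of the ISG15 system and effectors, which act on RNA, proteins and membranes.

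The 12 RNA sequencing libraries fall into 4 groups of 3, namely spheroids at 96 h, spheroids at 48 h, monolayers at 96 h and monolayers at 48 h. Spheroids were grown embedded in Matrigel, a gel of basement membrane proteins, and monolayers on dishes coated with collagen. Cells in every group were of the C57BL/6 strain and received progesterone and prolactin. Culture format and matrix changed together and cannot be told apart, and the labels record a change of medium after 48 h for the gels. The replicates are described as biological, with no statement of the animals behind them, so the p-values measure the spread between these libraries.

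Interferons are secreted proteins that bind receptors on the cell surface and, through JAK kinases, activate STAT proteins. Type I and type III interferons lead to a complex with STAT2 and IRF9 that binds the interferon-stimulated response element (ISRE) in the promoters of its target genes. Interferon-γ acts mainly through another element, the gamma-activated sequence (GAS). Interferon production itself starts when a sensor such as RIG-I, MDA5 or TLR3 meets double-stranded or uncapped RNA and passes the signal to IRF3 and IRF7. Epithelial cells also keep a low level of many of these genes without infection.

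The libraries held 7674105 to 13554497 counts each. Levels are given in CPM, counts scaled to library size by TMM, on which 3 counts correspond to 0.221 to 0.391 CPM, depending on the library. The epithelial markers were detected in every group: the summed level of the 8 markers was 7445 to 7806 CPM in spheroids at 96 h, 8177 to 8743 in spheroids at 48 h, 4866 to 5246 in monolayers at 96 h and 12314 to 14190 in monolayers at 48 h. The 9 fibroblast markers summed to 835 to 885 CPM in spheroids at 96 h, 2325 to 2535 in spheroids at 48 h, 2376 to 3473 in monolayers at 96 h and 10423 to 11254 in monolayers at 48 h. The 9 endothelial markers summed to 27.9 to 34.9, 62.1 to 72.4, 75.0 to 80.5 and 47.7 to 64.0 CPM in the same order. Of the 14 immune markers, 5 passed the filter on low counts. All 14 summed to 486 to 571, 292 to 324, 106 to 118 and 77.9 to 96.5 CPM in that order. The sum came mostly from Cd14, which was higher in spheroids at both times. At 96 h the macrophage genes Cd68 (4.97-fold) and Lyz2 (4.44-fold) were lower in spheroids, Itgam was higher (2.19-fold) and Csf1r was not called. At 48 h Cd68 was higher in spheroids (1.00 ± 0.26 on the log2 scale), and Lyz2, Itgam and Csf1r were not called. The pan-leukocyte gene Ptprc had 3, 8, 1 and 3 counts per group and Nkg7 had 0. In these bulk libraries, fewer cells of a type and less RNA per cell cannot be told apart.

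The ISRE is the sequence through which many of the genes are known to be controlled, so the promoters of the genes that the results turn on are shown first. RefSeq promoter windows on the build GRCm38.p6, another build than the mm9 of the counts, run 250 bases before to 50 bases after each gene start and were matched for 31 of the 38 genes. Dhx58, Gvin1, Mx1, Mx2, Oas2, Parp14 and Usp18 were not matched. The ISRE core was searched on both strands as GAAA, any 2 bases and GAAA again, and is in capitals below. The 250 bases before the start of Isg15, which encodes a ubiquitin-like modifier, lie at chr4:156200819-156201068 on the minus strand. Those of Ifit1, which encodes a protein that binds viral RNA, lie at chr19:34640639-34640888 on the plus strand.
Isg15: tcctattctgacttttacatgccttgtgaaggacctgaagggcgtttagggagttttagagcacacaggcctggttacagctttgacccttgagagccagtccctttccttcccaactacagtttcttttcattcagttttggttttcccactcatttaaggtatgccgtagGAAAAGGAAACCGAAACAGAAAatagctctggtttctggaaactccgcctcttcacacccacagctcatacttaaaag
Ifit1: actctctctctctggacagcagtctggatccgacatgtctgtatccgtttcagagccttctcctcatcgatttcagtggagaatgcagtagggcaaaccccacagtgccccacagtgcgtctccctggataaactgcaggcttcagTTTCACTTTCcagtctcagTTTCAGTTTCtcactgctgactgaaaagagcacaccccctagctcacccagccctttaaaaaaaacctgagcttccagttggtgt

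The Isg15 window held 3 matches that share bases with each other, the first starting 78 bases before the gene start. The Ifit1 window held 2 separate matches on the other strand, the first starting 104 bases before the gene start. Stretches of 60 bases around the matches are given for 6 more genes, 4 of which were lower in spheroids at both times (Gbp3, Bst2, Rsad2 and Oas1a) and 2 of which were higher in spheroids at 96 h (Gbp2 and Ifitm2). They lie at chr3:142559977-142560036 on the plus strand for Gbp3, chr8:71537565-71537624 on the minus strand for Bst2, chr12:26456538-26456597 on the minus strand for Rsad2, chr5:120907526-120907585 on the minus strand for Oas1a, chr3:142620579-142620638 on the plus strand for Gbp2 and chr7:140955973-140956032 on the minus strand for Ifitm2.
Gbp3: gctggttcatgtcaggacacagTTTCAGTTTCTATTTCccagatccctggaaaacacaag
Bst2: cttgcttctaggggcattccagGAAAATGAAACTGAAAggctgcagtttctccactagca
Rsad2: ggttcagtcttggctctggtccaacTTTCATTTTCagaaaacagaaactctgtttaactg
Oas1a: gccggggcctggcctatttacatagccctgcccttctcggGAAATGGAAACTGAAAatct
Gbp2: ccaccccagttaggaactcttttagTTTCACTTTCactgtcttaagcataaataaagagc
Ifitm2: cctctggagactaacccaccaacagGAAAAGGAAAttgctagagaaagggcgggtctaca

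The ISRE core was present in 16 of the 31 matched windows (51.6%), against 1079 of 27025 genes in the whole promoter table (3.99%). The 16 genes were Bst2, Ddx58, Eif2ak2, Gbp2, Gbp3, Ifih1, Ifit1, Ifit3, Ifitm2, Ifitm3, Irf2, Isg15, Oas1a, Oas3, Rsad2 and Stat2. The GAS element, searched as TTCNNNGAA, which reads the same on both strands, was present in 10 of the 31 windows (32.3%), against 9.55% of all genes in the table. Both motifs stood in the windows of 5 genes, and in 2 of these, Bst2 and Ifitm3, they shared bases. Matches of the ISRE core that share bases with each other were found in Bst2, Gbp3, Isg15 and Oas1a. A match is a description of the letters and not evidence of binding.

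Levels per kilobase of gene, in the deposited FPKM values averaged over the 12 libraries, set the genes in order. The order averages over groups and does not hold in each: in monolayers at 96 h Ifitm2 had 82.9 FPKM, below Ifitm3 with 178 and Bst2 with 92.6, and at 48 h Ifitm2 had 148, below Ifitm3 with 174. Over all libraries, Ifitm2 and Ifitm3, which encode membrane proteins that restrict virus entry, stood first with 181.5 and 177 FPKM, followed by Bst2, the virus tether tetherin, with 52.6 and Trim25, a ubiquitin ligase that acts on RIG-I, with 18.3. The transcription factors Irf1, Irf2 and Irf3 followed at 16.8, 16.5 and 16.2 FPKM. Of the genes classically used as reporters of an interferon response, Ifit1 and Rsad2 were low, with 1.77 and 1.22 FPKM. Isg15 had 11.5 FPKM over all libraries, near Irf9 with 11.9 and Stat2 with 10.1. Its group means lay far apart, at 7.17 FPKM in spheroids and 22.3 in monolayers at 96 h, and 2.18 and 14.2 at 48 h. In monolayers at 96 h Isg15 stood above Irf1 with 20.2, Irf2 with 16.9 and Irf3 with 16.0 FPKM. Mx1 had 0.376 FPKM. Every library is of the same mouse strain, and the part of its Mx1 allele in this level was not tested. Irf8, a factor of myeloid and lymphoid cells, and Ifitm1 closed the order with 0.187 and 0.149 FPKM. Reads of the near-identical members of the Ifitm, Ifit, Oas, Gbp and Gvin families may have been split between copies by the authors' counting, so single values in these families are uncertain.

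At 96 h, 20 of the 37 tested genes were lower in spheroids than in monolayers, 7 were higher and 10 did not pass the threshold, an adjusted p under 0.05 in edgeR's quasi-likelihood test. Of all tested genes, 73.8% were called at 96 h, 37.3% higher and 36.5% lower, so the total share of interferon genes called, 73.0%, was near the background, while the share lower was 54.1% and the share higher 18.9%. The median log2 fold change was -0.45 for the interferon genes, against -0.00 for all genes. More than 2-fold lower were 11 genes (29.7%, against 17.1% of all tested genes), and more than 2-fold higher was 1 gene, Ifitm2 (background 12.7%). The 3 values of each group did not overlap for 26 of the 37 genes, against 78.9% of all tested genes.

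At 48 h the shift was larger in median and again downwards: 22 genes were lower in spheroids than in monolayers, 5 were higher and 10 were not called. Of all tested genes 57.9% were called, 31.6% higher and 26.4% lower, and of the interferon genes 59.5% were lower and 13.5% higher. The median log2 fold change was -0.93, against 0.05 for all genes. More than 2-fold lower were 17 genes (45.9%, against 8.38%), and no gene was more than 2-fold higher (background 9.53%). The values did not overlap for 29 of the 37 genes, against 60% of all tested genes. The comparisons at 96 h and 48 h share no library, but both come from 1 fit to all 12 libraries and are not fully independent. For example, the 96 h calls of Ifih1 and Gbp3 were lost without replicate 2 of the 48 h monolayers.

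**Figure D1:**
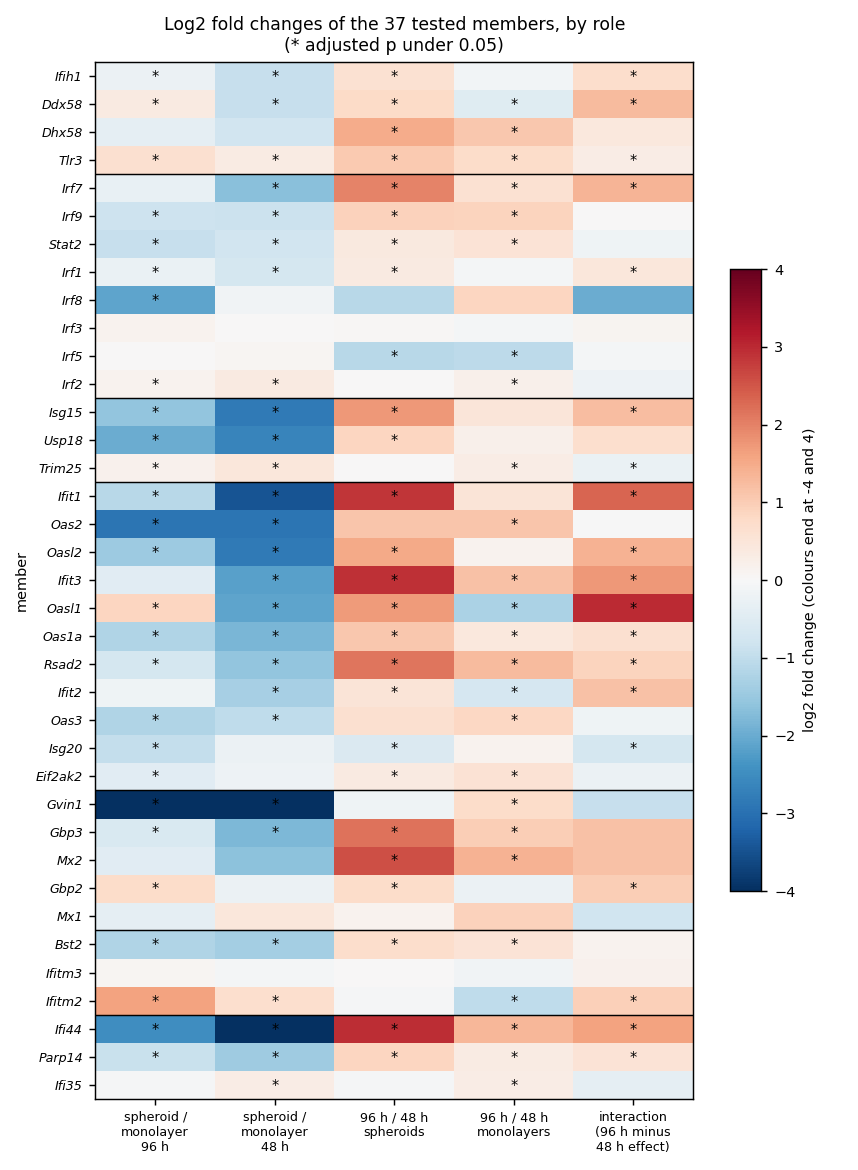
Log2 fold changes of the 37 tested genes (rows, grouped by role) in 5 comparisons (columns), with red for higher and blue for lower and colours ending at -4 and 4, and asterisks for an adjusted p under 0.05 in edgeR's quasi-likelihood test. The 2 columns on the left are mostly blue and the column of 96 h against 48 h in spheroids is mostly red.

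Lower in spheroids at both times were 17 genes, against 17.6% of all tested genes. They were Bst2, Gbp3, Gvin1, Ifi44, Ifih1, Ifit1, Irf1, Irf9, Isg15, Oas1a, Oas2, Oas3, Oasl2, Parp14, Rsad2, Stat2 and Usp18. Higher at both times were 4 genes, Ifitm2, Irf2, Tlr3 and Trim25, against 21.4% of all tested genes. Ddx58 and Oasl1 were higher in spheroids at 96 h and lower at 48 h, a pattern shown by 3.41% of all tested genes. Dhx58, Ifitm3, Irf3, Irf5, Mx1 and Mx2 were called at neither time. Fibroblast markers were also lower in spheroids, with 7 of 9 lower and 1 higher at 96 h and 6 of 9 lower and 2 higher at 48 h. Of the 9 endothelial markers, 8 were lower and 1 higher at 96 h, and 3 were lower and 3 higher at 48 h. For all tested genes the shares were 36.5% lower and 37.3% higher at 96 h, and 26.4% and 31.6% at 48 h. The part of other cell types in the lower levels was not tested.

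The 4 sensors of double-stranded RNA did not move together between formats, and all 4 were higher at 96 h than at 48 h in spheroids. Ddx58, which encodes RIG-I, the sensor of uncapped RNA ends, had 86.1, 80.3 and 90.4 CPM in spheroids and 62.2, 61.1 and 78.5 CPM in monolayers at 96 h. Its level at 48 h was 47.3, 46.7 and 56.7 CPM in spheroids and 100.4, 91.9 and 93.9 CPM in monolayers. The groups did not overlap at either time, and their order was opposite: the log2 fold change was 0.34 ± 0.09 at 96 h (SE, adjusted p = 0.0025) and -0.93 ± 0.10 at 48 h (adjusted p = 1.22e-07). Within spheroids Ddx58 rose by 0.77 ± 0.09 on the log2 scale between 48 h and 96 h, and within monolayers it fell by 0.50 ± 0.09.

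Tlr3, the endosomal receptor for double-stranded RNA, had 101.8, 98.1 and 92.4 CPM in spheroids and 63.9, 63.6 and 61.2 CPM in monolayers at 96 h. At 48 h it had 50.1, 43.9 and 47.1 CPM in spheroids and 42.5, 35.7 and 34.6 CPM in monolayers. Every spheroid library lay above every monolayer library of its time, with log2 fold changes of 0.63 ± 0.07 at 96 h (adjusted p = 4.25e-07) and 0.33 ± 0.08 at 48 h (adjusted p = 0.00228). Tlr3 rose with time in both formats, by 1.05 ± 0.08 in spheroids and 0.74 ± 0.08 in monolayers on the log2 scale.

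Ifih1, which encodes MDA5, the sensor of long double-stranded RNA, had 28.1, 28.8 and 33.6 CPM in spheroids and 36.2, 29.4 and 39.3 CPM in monolayers at 96 h, where the groups overlapped. At 48 h the groups were apart, with 21.7, 18.1 and 19.8 CPM in spheroids and 38.1, 38.1 and 37.9 CPM in monolayers. The log2 fold change was -0.93 ± 0.11 at 48 h (adjusted p = 4.96e-07) and -0.22 ± 0.10 at 96 h (adjusted p = 0.0498), and the call at 96 h was lost in 8 alternatives, for example without replicate 3 of the monolayers (-0.13, adjusted p = 0.264). Dhx58, which encodes LGP2, a regulator of RIG-I and MDA5, was called at neither time between formats but was higher at 96 h than at 48 h in spheroids (2.83-fold) and in monolayers (2.13-fold). Summed over the 4 sensors, the level was 218 ± 5.34 CPM in spheroids at 96 h, 119 ± 7.66 in spheroids at 48 h, 172 ± 14 in monolayers at 96 h and 174 ± 8.94 in monolayers at 48 h (SD, n = 3 each).

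Among the 8 transcription factors, Stat2 and Irf9, whose proteins are part of the ISRE-binding complex, were lower in spheroids. Stat2 had 33.4, 32.7 and 33.3 CPM in spheroids and 58.8, 50.5 and 78.1 CPM in monolayers at 96 h. The 48 h values were 25.6, 26.2 and 24.8 CPM in spheroids and 45.8, 42.5 and 42.1 CPM in monolayers. The groups did not overlap, and the log2 fold changes were -0.92 ± 0.11 at 96 h (adjusted p = 4.97e-07) and -0.77 ± 0.12 at 48 h (adjusted p = 2.41e-05). Irf9, the DNA-binding part of the complex, gave -0.83 ± 0.12 and -0.86 ± 0.14 at 96 h and 48 h, and rose with time by 0.91 ± 0.14 in spheroids and 0.88 ± 0.12 in monolayers. For neither gene did the effect of format differ between the times beyond the error of the interaction (adjusted p = 0.436 for Stat2 and 0.905 for Irf9).

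Irf7, the factor that drives interferon-α genes and is itself an interferon target, differed in its course. It had 7.26, 9.13 and 10.9 CPM in spheroids and 8.56, 8.89 and 16.0 CPM in monolayers at 96 h, where the groups overlapped (adjusted p = 0.181). At 48 h it had 2.56, 2.32 and 2.0 CPM in spheroids, below the 7.06, 7.71 and 7.25 CPM in monolayers, with a log2 fold change of -1.67 ± 0.27 (adjusted p = 4.07e-05). In spheroids Irf7 was 3.94-fold higher at 96 h than at 48 h (adjusted p = 7.57e-06). In monolayers the rise of 0.61 ± 0.21 on the log2 scale was lost without replicate 3 of the 96 h monolayers, where it was 0.24 (adjusted p = 0.238).

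The remaining factors moved less or in other directions. Irf1, an activator induced mainly by interferon-γ, was lower in spheroids by 0.28 ± 0.09 at 96 h and 0.72 ± 0.09 at 48 h on the log2 scale, and without replicate 3 of the 96 h monolayers the first of these was no longer called (-0.19, adjusted p = 0.0871). Irf2, which represses many targets of IRF1, went the other way, with 0.15 ± 0.06 at 96 h and 0.35 ± 0.07 at 48 h, and its call at 96 h was lost in 11 alternatives, among them total-count scaling (0.08, adjusted p = 0.284). Irf3, the factor that RNA sensors activate without new synthesis, was called in none of the 5 comparisons, with 36.2, 33.5 and 30.3 CPM in spheroids and 29.6, 30.8 and 30.6 CPM in monolayers at 96 h. Irf5, a factor of Toll-like receptor signalling, was called with time alone and fell by 1.10 ± 0.24 in spheroids and 1.04 ± 0.24 in monolayers. Irf8 was near the limit of detection, with 8 counts in spheroids and 30 in monolayers at 96 h, where it was lower in spheroids (-2.12 ± 0.67, adjusted p = 0.00873). Of the 8 counts, 7 came from replicate 1, and without that library the log2 fold change was -4.22 (adjusted p = 0.000419).

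**Figure D2:**
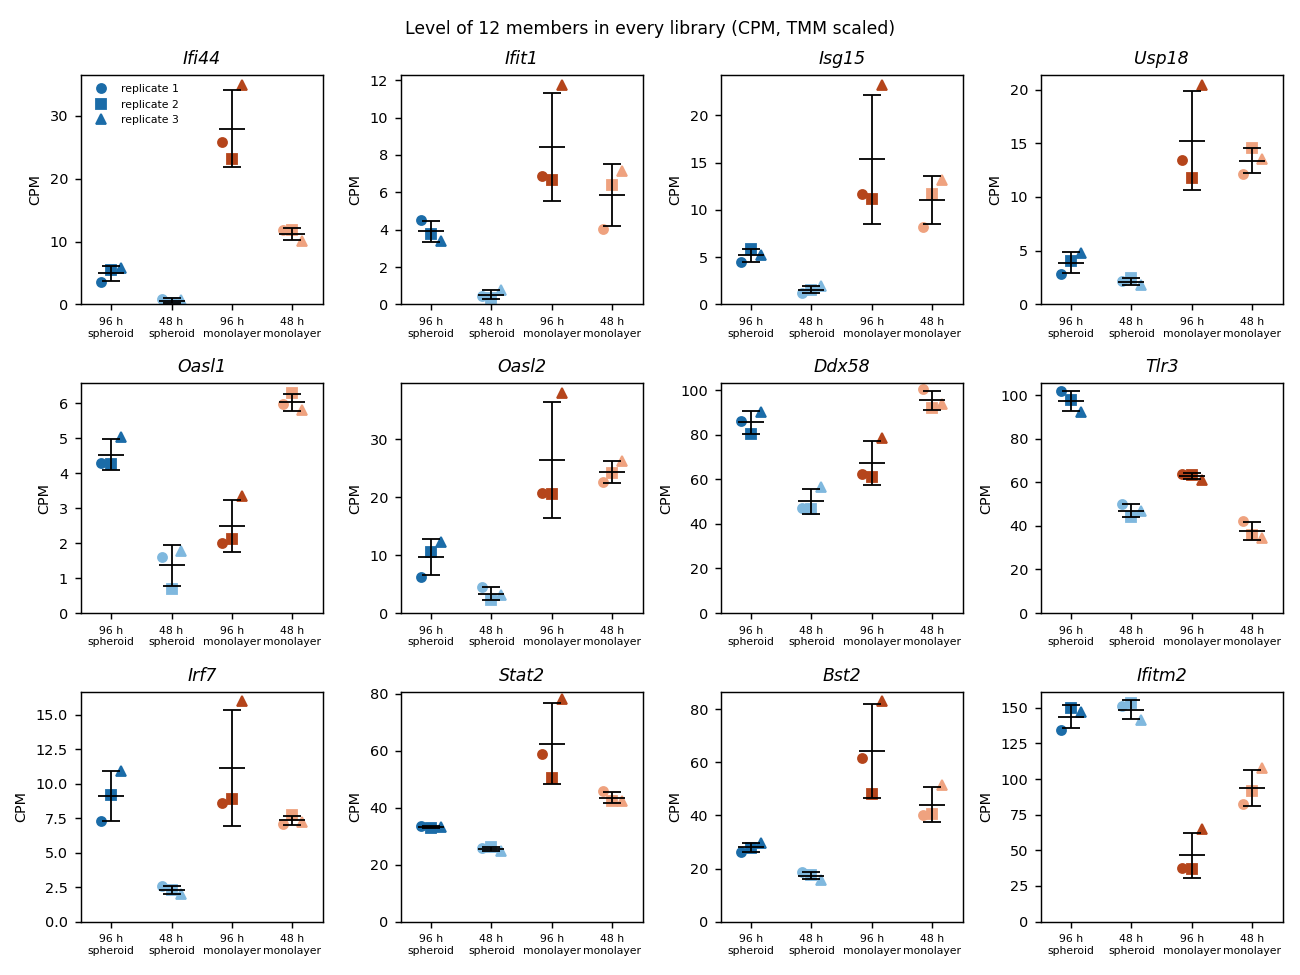
Level of 12 genes in each library, in CPM with TMM scaling on linear axes that start at 0, with symbols for replicates 1 to 3, bars for the mean and SD of each group of 3, spheroids in blue, monolayers in red and 48 h in the paler shade. Replicate 3 of the 96 h monolayers is the highest symbol of its group in 11 of the panels shown, all but Tlr3.

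In the ISG15 system, Isg15 and Usp18 were lower in spheroids and Trim25 was higher. Isg15 had 4.51, 5.84 and 5.27 CPM in spheroids and 11.7, 11.1 and 23.2 CPM in monolayers at 96 h. Its levels at 48 h were 1.23, 1.51 and 2.0 CPM in spheroids and 8.24, 11.7 and 13.2 CPM in monolayers. All spheroid libraries lay below all monolayer libraries, 2.98-fold lower at 96 h (adjusted p = 1.39e-05) and 7.04-fold lower at 48 h (adjusted p = 8.53e-07). Usp18, the protease that removes ISG15 and damps receptor signalling, had 2.83, 4.03 and 4.75 CPM in spheroids and 13.4, 11.8 and 20.5 CPM in monolayers at 96 h. Its log2 fold changes were -1.98 ± 0.20 at 96 h (adjusted p = 6.45e-08) and -2.65 ± 0.24 at 48 h (adjusted p = 2.65e-08). Trim25 was slightly higher in spheroids at both times, by 0.18 ± 0.07 and 0.45 ± 0.07 on the log2 scale at 96 h and 48 h, and the call at 96 h was lost in 8 alternatives, among them upper-quartile scaling (0.08, adjusted p = 0.243).

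Of the 11 effectors of RNA recognition and decay, 9 were lower in spheroids at 48 h (26.4% of all tested genes), none was higher and 2 were not called. At 96 h, 8 were lower (36.5% of all tested genes), 1 was higher and 2 were not called, and their median log2 fold change was -0.95, against -1.84 at 48 h. Ifit1 had 4.51, 3.78 and 3.42 CPM in spheroids and 6.88, 6.64 and 11.7 CPM in monolayers at 96 h. At 48 h it had 0.473, 0.347 and 0.779 CPM in spheroids, from 15 counts in all, and 4.02, 6.39 and 7.16 CPM in monolayers. The groups did not overlap, and Ifit1 was 2.17-fold lower in spheroids at 96 h (adjusted p = 0.000386) and 10.9-fold lower at 48 h (adjusted p = 3.6e-07).

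Its relatives Ifit2 and Ifit3 were called lower at 48 h but not at 96 h. Ifit3 gave -2.18 ± 0.57 at 48 h (adjusted p = 0.0029), from 16 counts in spheroids and 88 in monolayers, and Ifit2 gave -1.34 ± 0.18 (adjusted p = 4.33e-06). At 96 h the values were -0.44 ± 0.33 for Ifit3 (adjusted p = 0.238) and -0.16 ± 0.17 for Ifit2 (adjusted p = 0.413). Rsad2, which encodes viperin, an enzyme that makes a chain-terminating nucleotide, had 5.58, 3.87 and 6.16 CPM in spheroids and 8.0, 7.77 and 9.52 CPM in monolayers at 96 h. It was lower in spheroids at both times, by 0.69 ± 0.19 at 96 h and 1.58 ± 0.29 at 48 h on the log2 scale.

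The Oas genes encode enzymes that make 2′-5′-linked oligoadenylate, the activator of RNase L, and the Oasl genes their relatives. Oas1a, Oas2, Oas3 and Oasl2 were lower in spheroids at both times. Oas2 had the largest change of these, with 0.688, 0.741 and 1.11 CPM in spheroids and 4.40, 5.51 and 9.70 CPM in monolayers at 96 h, and it was 7.61-fold lower at 96 h (adjusted p = 3.11e-07) and 7.52-fold lower at 48 h (adjusted p = 2.92e-05). Oasl2 gave -1.45 ± 0.23 at 96 h and -2.84 ± 0.29 at 48 h. Oasl1, which restrains translation of Irf7 in mouse cells, went against them at 96 h, with 4.28, 4.28 and 5.05 CPM in spheroids and 2.0, 2.13 and 3.35 CPM in monolayers. At 48 h the order was opposite, with 1.61, 0.695 and 1.78 CPM in spheroids and 5.98, 6.30 and 5.82 CPM in monolayers. The groups did not overlap at either time, and the log2 fold changes were 0.85 ± 0.24 at 96 h (adjusted p = 0.00345) and -2.12 ± 0.27 at 48 h (adjusted p = 1.59e-06).

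Eif2ak2 encodes PKR, the kinase that halts translation on double-stranded RNA. It had 52.5, 52.0 and 56.5 CPM in spheroids and 70.3, 60.6 and 88.5 CPM in monolayers at 96 h, a difference of -0.45 ± 0.11 (adjusted p = 0.001). At 48 h the groups overlapped, and the difference of -0.22 ± 0.12 was not called (adjusted p = 0.117). Isg20, an exonuclease that degrades single-stranded RNA, was lower in spheroids at 96 h (-0.95 ± 0.15) and not called at 48 h (-0.24 ± 0.15), and it was 1 of 2 genes, with Irf5, that fell with time in spheroids.

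Among the GTPases, Gvin1, a very large interferon-inducible GTPase, had the largest fold change between formats of the 37 genes at both times. Its row had 1.30, 0.741 and 1.11 CPM in spheroids and 44.6, 53.1 and 52.5 CPM in monolayers at 96 h, and 0.946, 0.811 and 1.89 CPM in spheroids and 23.4, 48.4 and 16.7 CPM in monolayers at 48 h. Spheroid and monolayer libraries were far apart, with log2 fold changes of -5.54 ± 0.38 at 96 h (adjusted p = 2.17e-10) and -4.61 ± 0.42 at 48 h (adjusted p = 2.25e-08). The symbol has a second row, and with both rows summed, an alternative chosen after seeing the data, the changes were -5.82 and -4.94. Over both rows Gvin1 had 65 counts in spheroids and 3082 in monolayers at 96 h, and 51 counts in spheroids and 1866 in monolayers at 48 h. Of the 9 endothelial markers, 8 were lower and Vwf higher in spheroids at 96 h. At 48 h 3 were lower, 3 (Vwf, Cldn5 and Esam) higher and 3 not called. Of the 9 fibroblast markers, 7 were lower and 1 higher at 96 h, and 6 were lower and 2 higher at 48 h. Of all tested genes, 36.5% were lower and 37.3% higher at 96 h, and 26.4% and 31.6% at 48 h. The part of other cells in the Gvin1 level was not tested.

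The guanylate-binding proteins, which attack the membranes around intracellular microbes, split. Gbp2 had 21.4, 25.0 and 23.7 CPM in spheroids and 13.2, 13.5 and 15.4 CPM in monolayers at 96 h, where spheroids were higher (0.73 ± 0.10, adjusted p = 2.58e-06). At 48 h Gbp2 was not called, with 15.0, 13.7 and 12.9 CPM in spheroids and 15.6, 17.1 and 16.8 CPM in monolayers (-0.25 ± 0.11, adjusted p = 0.0534). Some alternatives called it lower in spheroids at 48 h, among them upper-quartile scaling (-0.26, adjusted p = 0.0406). Gbp3 was lower in spheroids at 48 h (-1.80 ± 0.40, adjusted p = 0.000841), and its call at 96 h (-0.61 ± 0.27, adjusted p = 0.0474) was lost in 10 alternatives, with -0.14 without replicate 3 of the monolayers. Mx1 and Mx2, which encode dynamin-like GTPases, were nearly silent. Every library is of the same mouse strain, and the part of its Mx1 and Mx2 alleles in these levels was not tested. Mx1 had 43 counts in spheroids and 46 in monolayers at 96 h, and 29 and 25 at 48 h in the same order. Mx2 had 3 counts in spheroids and 12 in monolayers at 48 h, a ratio of 0.297 whose 95% counting interval ran between 0.0537 and 1.10.

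The membrane proteins differed from each other: Bst2 was lower in spheroids, Ifitm2 was higher and Ifitm3 was not called. Bst2 had 26.4, 27.9 and 29.6 CPM in spheroids and 61.8, 48.2 and 83.3 CPM in monolayers at 96 h. The 48 h levels were 18.5, 17.5 and 15.8 CPM in spheroids and 40.1, 40.6 and 51.6 CPM in monolayers. The groups did not overlap, and the log2 fold changes were -1.22 ± 0.14 (adjusted p = 4.44e-07) at 96 h and -1.35 ± 0.16 (adjusted p = 9.74e-07) at 48 h. Ifitm2 had 134, 149.5 and 147 CPM in spheroids and 37.7, 37.1 and 64.9 CPM in monolayers at 96 h, and it was 3.07-fold higher in spheroids (adjusted p = 1.41e-08). At 48 h it had 151, 153 and 141 CPM in spheroids and 82.7, 91.4 and 107.6 CPM in monolayers, 1.58-fold higher (adjusted p = 0.000553). Its neighbour in the family, Ifitm3, was called in none of the 5 comparisons and had 97.8, 111 and 120.7 CPM in spheroids and 95.1, 88.6 and 127 CPM in monolayers at 96 h.

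Of the remaining genes, Ifi44, an interferon-induced cytoplasmic protein, changed most. It had 3.59, 5.51 and 5.79 CPM in spheroids and 25.8, 23.2 and 34.8 CPM in monolayers at 96 h. Levels at 48 h were 0.946, 0.232 and 0.668 CPM in spheroids, from 18 counts, and 11.8, 11.8 and 10.1 CPM in monolayers. The groups were apart at both times, with Ifi44 5.65-fold lower in spheroids at 96 h (adjusted p = 5.29e-10) and 17.3-fold lower at 48 h (adjusted p = 2.34e-09). Parp14, a mono-ADP-ribosyltransferase, was lower by 0.89 ± 0.12 at 96 h and 1.44 ± 0.14 at 48 h on the log2 scale. Ifi35 was not called at 96 h (adjusted p = 0.668), and its call at 48 h (0.30 ± 0.13, adjusted p = 0.0486) was lost in 10 alternatives, among them DESeq2 (0.26, adjusted p = 0.108).

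**Figure D3:**
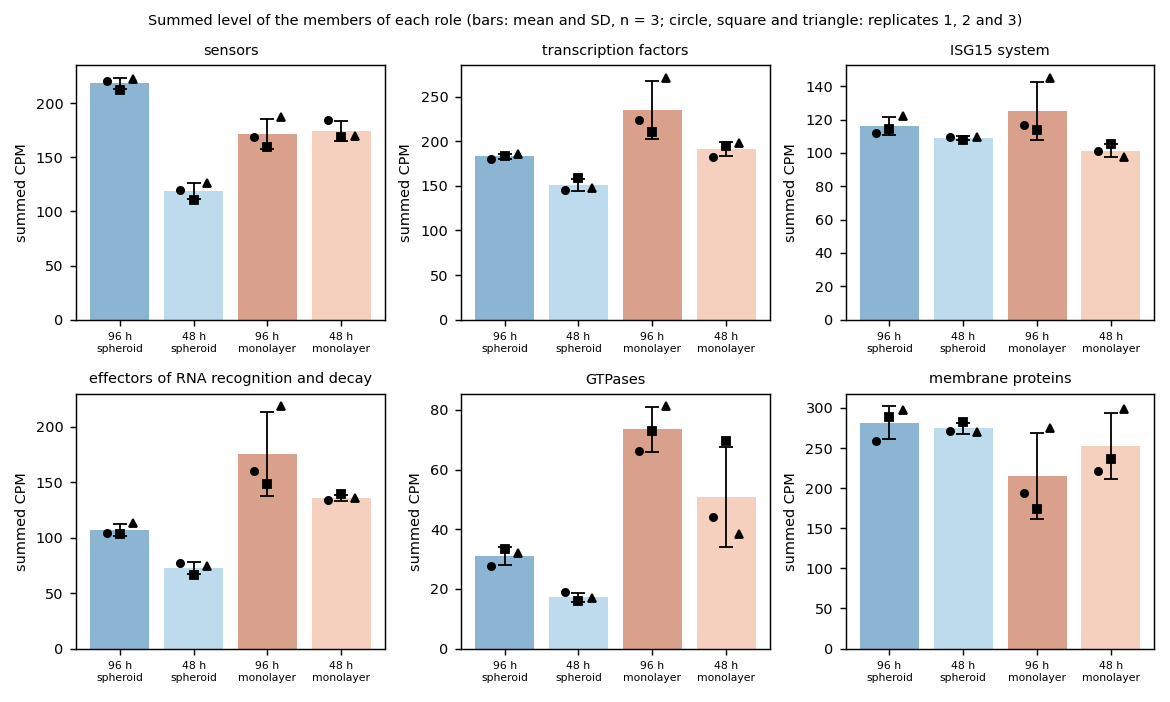
Summed level of the genes of each role, in CPM on linear axes that start at 0, with bars for the mean and SD of 3 libraries and symbols for replicates 1 to 3; the genes with the most reads weigh most in each sum. In the panel of RNA effectors the 96 h spheroids stand at 107 CPM against 175 CPM in 96 h monolayers, and the 48 h spheroids at 72.7 CPM against 136 CPM in 48 h monolayers. In the same order, transcription factors stand at 183 against 235 and 151 against 192 CPM, and GTPases at 30.9 against 73.5 and 17.2 against 50.7. Sensors stand at 218 against 172 and 119 against 174 CPM, and the ISG15 system at 116 against 125 and 109 against 101. Membrane proteins stand at 282 against 215 and 275 against 253 CPM, with libraries of the formats overlapping at both times.

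With time in spheroids, 24 of the 37 genes were higher at 96 h than at 48 h, 2 were lower and 11 were not called. Of all tested genes 39.8% were called in this comparison, 19.3% higher and 20.5% lower, and of the interferon genes 64.9% were higher. The median log2 fold change was 0.75, against 0.01 for all genes. More than 2-fold higher were 13 genes (35.1%, against 2.4% of all tested genes), and more than 2-fold lower was 1 gene, Irf5 (background 8.58%). Of the 37 genes, 28 had groups that did not overlap, against 53.8% of all tested genes. The largest changes among genes with a mean of at least 1 CPM were those of Ifi44 (2.94 ± 0.36), Ifit3 (2.93 ± 0.52), Ifit1 (2.85 ± 0.40) and Gbp3 (2.17 ± 0.38), with adjusted p between 2.99e-06 for Ifi44 and 0.00018 for Ifit3. Rsad2 was 4.43-fold higher. The 48 h spheroid libraries also serve the 48 h comparison of formats and the interaction, so these results are not independent of each other. For Ifi44, Ifit1 and Ifit3 they rest in part on the same 18, 15 and 16 counts in the 48 h spheroids. Mx2 had 27 counts at 96 h and 3 at 48 h, a ratio of 6.55 whose counting interval ran between 2.02 and 33.8. All 9 fibroblast and all 9 endothelial markers were lower in spheroids at 96 h than at 48 h.

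With time in monolayers, 20 genes were higher at 96 h than at 48 h, 5 were lower and 12 were not called. Of all tested genes 61.3% were called, 30.1% higher and 31.3% lower, and the share of interferon genes higher was 54.1%. The median log2 fold change was 0.48, against 0.01 for all genes, and 6 genes (16.2%, against 8.55%) were more than 2-fold higher and 3 (8.11%, against 7.33%) more than 2-fold lower. The 5 genes lower at 96 h were Ddx58, Ifit2, Oasl1, Irf5 and Ifitm2. Non-overlapping groups were found for 25 of the 37 genes, against 63.8% of all tested genes. In the same comparison all 8 epithelial markers were lower at 96 h, with a median of -1.49, 7 of 9 fibroblast markers were lower and 2 higher, and 4 of 9 endothelial markers were higher and 1 lower. Of the 5 tested immune markers, 2 were higher, among them Cd68 (10.2-fold), and 1 was lower. The part of these in the values was not tested.

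The count in monolayers rested in part on 1 library. Replicate 3 was the highest of the 3 monolayer libraries at 96 h for 31 of the 37 genes, against 34.5% of all tested genes. Without it, 12 genes in place of 20 were higher at 96 h, and the calls of Gbp3, Ifi35, Ifit3, Irf2, Irf7, Mx2, Oas1a and Parp14 were lost. Ifi44 (1.13), Rsad2 (1.17), Irf9 (0.73) and Tlr3 (0.76) were called without it. The same library had the highest fibroblast marker sum of its group, 3473 CPM against 2376 and 2595 in replicates 1 and 2, and the part of this in the values was not tested. With total-count scaling or the deposited log2 FPKM values, the median of all genes shifted to 0.18 or 0.13, and 66.2% or 65.2% of all called genes were higher at 96 h in monolayers, against 49% with TMM scaling. The comparison at 48 h shifted likewise, with 65.1% and 65.2% of called genes higher in spheroids, against 54.5%, and medians of 0.16 and 0.12.

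**Figure D4:**
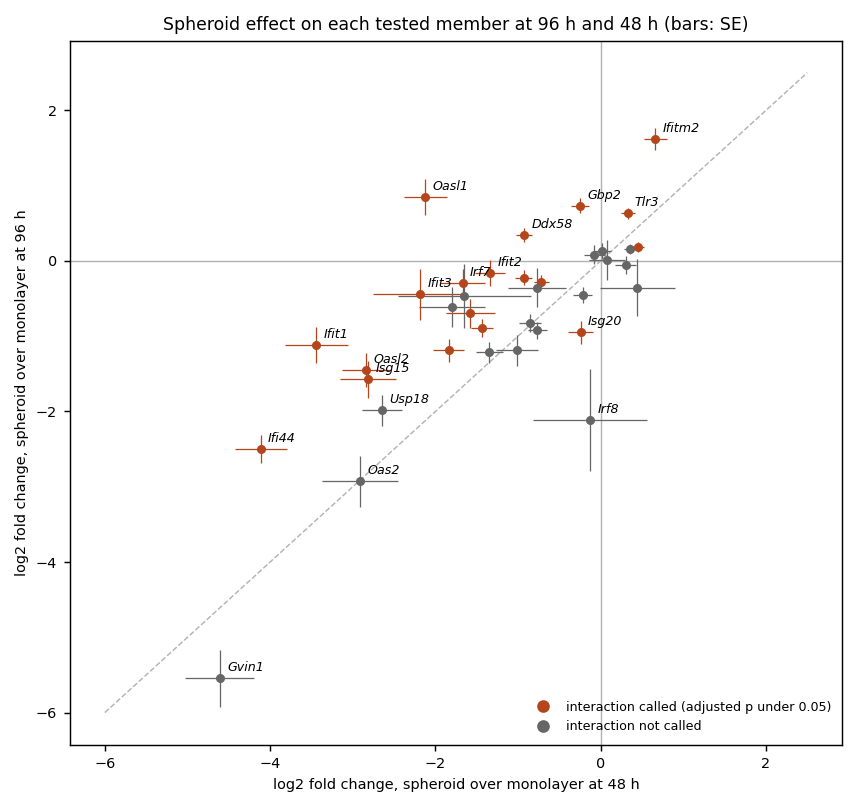
Log2 fold change of spheroids over monolayers at 96 h (vertical axis) against that at 48 h (horizontal axis) for the 37 tested genes, with SE bars and the line of equality dashed. Red points are genes whose effects at the 2 times differed by the interaction test; most of these lie above the line, with Oasl1 and Ddx58 above 0 on the vertical axis and below 0 on the horizontal one.

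The interaction term tested whether the effect of culture format at 96 h differed from that at 48 h. It was positive and called for 17 of the 37 genes, negative and called for 2 and not called for 18. Of all tested genes 53.3% were called, 26.9% positive and 26.4% negative, and of the interferon genes 45.9% were positive. The median was 0.44, against -0.02 for all genes, and 9 genes had an interaction of more than 2-fold upwards (24.3%, against 7.72%). The largest were Oasl1 (2.97 ± 0.36, adjusted p = 1.58e-06), Ifit1 (2.32 ± 0.49, adjusted p = 0.000601), Ifit3 (1.74 ± 0.68, adjusted p = 0.0376) and Ifi44 (1.61 ± 0.43, adjusted p = 0.00435). The call of Ifit3 was lost in 11 of 22 alternatives. Isg20 (-0.71 ± 0.22) and Trim25 (-0.27 ± 0.09) were negative. With total-count scaling the positive calls numbered 11 and with log2 FPKM values 9, and 34.2% and 35.6% of all called genes were then positive, against 50.5% with TMM scaling, at medians of -0.205 and -0.15.

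By class, the 12 sensors and transcription factors counted 3 higher and 5 lower in spheroids at 96 h, and 2 higher and 6 lower at 48 h, with median log2 fold changes of -0.25 and -0.74. For all tested genes the shares were 37.3% higher and 36.5% lower at 96 h, and 31.6% and 26.4% at 48 h. The 25 tested genes of the ISG15 system and effectors counted 4 higher and 15 lower at 96 h, and 3 higher and 16 lower at 48 h, with medians of -0.69 and -1.58. With time in spheroids, 8 of the 12 and 16 of the 25 were higher, against 19.3% of all tested genes. A test of the difference between the classes, or between genes with and without the ISRE core, was not made. Of the 16 genes with an ISRE core in the promoter, 4 were higher and 10 lower in spheroids at 96 h, and of 14 tested genes with a matched promoter without one, 3 were higher and 6 lower. At 48 h the counts were 2 higher and 11 lower with the core, and 3 higher and 7 lower without. With time in spheroids, 12 genes with the core were higher and none was lower, against 8 higher and 2 lower without.

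Transcripts of the interferons themselves were hardly detected. Of 18 interferon genes looked for, among them Ifnb1, the interferon-α genes and Ifng, 14 had 0 counts in all 12 libraries, and the other 4 had 5 counts between them. In a single library a count of 0 allows up to 3 counts, so a level of up to 0.221 to 0.391 CPM could have gone undetected there. For a gene with 0 counts in all 12 libraries the limit over the libraries together is lower and was not computed. The receptors and the JAK-STAT genes were all tested, with 6 of 16 higher and 6 lower in spheroids at 96 h, near the shares of all tested genes (37.3% and 36.5%), and 4 higher and 3 lower at 48 h (31.6% and 26.4% of all tested genes). Ifnlr1, the chain particular to the interferon-λ receptor, was higher in spheroids at 96 h (0.67 ± 0.08, adjusted p = 6.5e-07) with no call at 48 h. Jak2, which encodes a JAK kinase, was lower at 96 h (-0.70 ± 0.07) and not called at 48 h (0.09 ± 0.07). Socs1 and Socs3, feedback inhibitors of JAK kinases, were higher in spheroids at 48 h (1.27 ± 0.26 and 1.47 ± 0.15) and lower at 96 h (-1.0 ± 0.27 and -0.43 ± 0.14).

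Of genes of signalling below the sensors and of DNA sensing, 6 of 17 were higher and 6 lower in spheroids at 96 h, near the 37.3% and 36.5% of all tested genes, and 9 were higher and 4 lower at 48 h, against 31.6% and 26.4%. Tlr2, a receptor for bacterial lipoproteins, was higher at both times (2.37 ± 0.08 at 96 h and 0.96 ± 0.08 at 48 h), and Zbp1, a sensor of Z-form nucleic acid, was lower at both (-0.65 ± 0.26 and -1.17 ± 0.33). Tlr7, a receptor for single-stranded RNA, was lower in spheroids at 96 h (-1.88 ± 0.48) and higher at 48 h (2.27 ± 0.63), at levels of 0.52 and 1.96 CPM in spheroids and monolayers at 96 h and 1.2 and 0.25 CPM at 48 h.

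Other genes known to be induced by interferon were counted in the same way, in a list also written with earlier results of these data known. Of 46 listed, 38 were tested, and 6 were higher and 20 lower in spheroids at 96 h, and 3 higher and 22 lower at 48 h, with median log2 fold changes of -0.44 and -0.57. Of all tested genes, 37.3% were higher and 36.5% lower at 96 h, and 31.6% and 26.4% at 48 h. More than 2-fold lower were 12 genes at 96 h (against 17.1% of all tested genes) and 14 at 48 h (against 8.38%). More than 2-fold higher was 1 gene at each time, against 12.7% and 9.53% of all tested genes. The 43 genes with a row summed to 2821 to 2919 CPM in spheroids and 2164 to 2380 in monolayers at 96 h. At 48 h the sums were 2007 to 2163 and 2313 to 2698 CPM in the same order. The genes with the most reads weigh most in each sum. The largest changes among genes lower at 48 h were those of Ifi47 (-3.87 ± 0.39), an immunity-related GTPase, Rtp4 (-3.45 ± 0.30), Irgm1 (-2.58 ± 0.15), which controls such GTPases, and Cxcl10 (-2.58 ± 0.36), a chemokine that attracts T cells. At 96 h the same genes gave -1.46 ± 0.33 for Ifi47, -1.26 ± 0.18 for Rtp4 and -0.94 ± 0.14 for Irgm1, and Cxcl10 was not called (-0.49 ± 0.33). Trim30a gave -2.48 ± 0.23 at 96 h and -1.70 ± 0.28 at 48 h. With time in spheroids, 15 of the 38 were higher and 7 lower, against 19.3% and 20.5% of all tested genes, with Rtp4 (2.97 ± 0.31) and Ddx60 (2.51 ± 0.40) changing most. Genes of antigen presentation on MHC class I and class II counted 4 of 12 higher and 5 lower at 96 h and 3 higher and 5 lower at 48 h, against 37.3% and 36.5% of all tested genes at 96 h and 31.6% and 26.4% at 48 h. Nothing is read from these counts for the list. B2m, the light chain of MHC class I, was lower in spheroids at both times (-1.03 ± 0.09 and -0.72 ± 0.09), and Tap1, a peptide transporter, was lower at 96 h (-0.51 ± 0.09) and higher at 48 h (0.52 ± 0.11).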

How the data were processed

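Per the labels, mRNA libraries were made from total RNA with Illumina TruSeq. Per the submitters' processing notes, reads went through bcl2fastq 2.15.0, Bowtie 1.0.1 and RSEM 1.2.30, with mm9 as the genome build. No source used here states the strand setting. The deposited values are expected counts of RSEM, rounded to whole numbers, and log2 values of FPKM plus 1. Rounding of estimated reads matters at the lowest values: 338 values are a count of 0 beside an FPKM above 0.

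Tests were run with edgeR 4.0.16 under R 4.3.3. Low genes were removed with filterByExpr (minimum count 10, minimum total 15), libraries were scaled by TMM (factors 0.923 to 1.07), and 1 quasi-likelihood model with group as its term was fitted to all 12 libraries. Tests were 2-sided with Benjamini-Hochberg adjustment over 13951 genes in each contrast and a threshold of 0.05. Fold changes are on the log2 scale, and each SE is the change divided by the square root of F. Alternatives used limma 3.58.1, DESeq2 1.42.0, other scalings and filters, a block and leaving out each library. Intervals for groups with 1 to 3 counts are exact (Clopper-Pearson) at 95% and cover counting error only. The members and lists were chosen with earlier results of these data known. By rule, every member may be named, values per library are given for those with the highest level in a role, the largest change or an opposite direction, and genes of other lists are named from those with the largest called changes or where a result turns on them.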

Additional observations from a re-analysis of the deposited data

Results flagged for a closer look

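For 19 genes the effect of culture format, spheroid over monolayer, differed between 96 h and 48 h by a test of the difference itself, the interaction term of edgeR's quasi-likelihood model at an adjusted p under 0.05. The difference, 96 h minus 48 h on the log2 scale, was positive for 17. It was largest for Oasl1 (2.97) and Ifit1 (2.32), followed by Ifit3 (1.74), Ifi44 (1.61), Oasl2 (1.39), Irf7 (1.37), Ddx58 (1.27), Isg15 (1.24) and Ifit2 (1.18). Smaller positive values were those of Gbp2 (0.978), Ifitm2 (0.955), Rsad2 (0.883), Ifih1 (0.709), Oas1a (0.649), Parp14 (0.542), Irf1 (0.441) and Tlr3 (0.304). Several of these calls depend on the processing: of 22 alternatives, the call of Rsad2 was kept in 8, lost in 13 and reversed in 1, that of Ifit3 was kept in 11, and those of Oas1a and Tlr3 were kept in 12 each. The difference was negative for Isg20 (-0.707) and Trim25 (-0.273). For Oasl1 and Ddx58 the effect itself had opposite signs at the 2 times, each past the threshold. The 96 h spheroids had received a medium change that is recorded for the gels, and its part in the differences was not tested.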

How the results depend on the processing

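Each comparison was recomputed under 23 alternatives (22 for the interaction), 12 of which left out 1 library each. Of 124 calls of single genes over the 5 comparisons, 95 were called in the same direction under every alternative run: 22 of 27 at 96 h, 26 of 27 at 48 h, 22 of 26 for time in spheroids, 16 of 25 for time in monolayers and 9 of 19 for the interaction. Other calls were gained under some alternatives. Without replicate 1 of the 96 h monolayers, Ifit1 (0.67, adjusted p = 0.0322) and Isg15 (0.67, adjusted p = 0.0230) were higher at 96 h in monolayers. With DESeq2, Dhx58 was lower in spheroids at 48 h (-0.80, adjusted p = 0.0362). Preferring a row that carries the symbol alone changed no row of the 38 genes, so this alternative could only repeat the main result. Summing the Gvin1 rows changed the counts of Gvin1 alone. Both are counted among the alternatives but could hardly change a call of another gene. The Dhx58 row also carries D11lgp2. In monolayers, the genes higher at 96 h numbered 12 to 23 when 1 library was left out, against 20, with 12 without replicate 3 of the 96 h monolayers. For the interaction, 2 genes were negative, against 4 with upper-quartile factors, 5 with total counts, 1 with no filter, 6 with log2 FPKM and 1 to 3 when 1 library was left out. The positive ones numbered 17, against 11 with total counts and 9 with log2 FPKM. On the log2 FPKM scale, with its pseudocount of 1, the interaction turned to -0.11 (adjusted p = 0.668) for Ifi44 and to -0.0014 (adjusted p = 0.995) for Rsad2. The cause was not tested.

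The groups share replicate numbers. Same-numbered libraries did not deviate together: none of 18 pairs had a correlation over 0.1 (range -0.110 to 0.0881), and in 9 of 36 comparisons of a library with another group its closest library had its own number. The numbers were therefore not taken as pairs. With the replicate number as a block, the genes called higher and lower were 7 and 20 at 96 h, 5 and 22 at 48 h, 24 and 2 for time in spheroids, 22 and 5 for time in monolayers, and 17 and 2 for the interaction, where Ifit3 was lost (adjusted p = 0.05003) and Gbp3 gained (adjusted p = 0.0335).

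Depth limits the low genes. Ifi44, Ifit1 and Ifit3 rested on 18, 15 and 16 counts in the 48 h spheroids, Mx2 on 3, and Ifitm1 could not be tested.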
